A study of Mus musculus with 14 samples.

Results

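The Notch pathway list holds 30 mouse genes, chosen by symbol: 3 receptors, 5 canonical ligands, 2 noncanonical ligands, 3 Fringe glycosyltransferases, 3 ubiquitin ligases, 4 genes of the nuclear complex, 7 Hes or Hey genes, the feedback inhibitor Nrarp and the inhibitors Numb and Numbl. All 30 were found among the 25229 gene symbols of the progenitor table and the 55353 of the postmitotic table, and all 30 passed the filter on low counts in both. Polyadenylated RNA was sequenced from microdissected layer II/III of mouse cortex at postnatal day 5, in 14 libraries. Every animal carried the floxed allele Lhx2lox/lox, and plasmids were delivered by electroporation in utero at E15.5. In the progenitor experiment, 4 libraries labelled mutant received a Cre-EGFP plasmid and 4 controls an EGFP plasmid. In the postmitotic experiment all animals received EGFP, and 3 libraries labelled mutant came from NexCre/+; Lhx2lox/lox animals and 3 controls from Lhx2lox/lox animals. NexCre is Cre knocked into the Neurod6 locus and is active in excitatory neurons after their last division. Cre was present only on the mutant side of each comparison, so its presence and the recombination of Lhx2 cannot be told apart.

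Notch is a cell surface receptor that is cut when a ligand on a neighbouring cell binds it. Its intracellular domain then enters the nucleus, joins the DNA-binding protein RBPJ and a Mastermind coactivator, and switches on repressor genes of the Hes and Hey families. In the embryonic cortex this pathway keeps radial glia dividing while their neighbours become neurons, and in postmitotic neurons it is known for limiting dendrite growth. In brain vessels, Notch3 is made mainly by mural cells (pericytes and smooth muscle), and Notch4 and Dll4 by endothelial cells. The comparison of libraries labelled mutant with controls asks whether these genes differ when Lhx2 is targeted in progenitors or after the last division.

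RBPJ binds a core that reads TGGGAA, or TTCCCA on the opposite strand, and basic helix-loop-helix factors bind the E-box CANNTG. The sequences below run from 250 bases before to 50 bases after an annotated start site (RefSeq, GRCm38.p6), 5′ to 3′ on the gene's strand, with these motifs in capitals. They are shown for a classic target with the same mean in both progenitor groups (Hes5), the DNA-binding factor (Rbpj), the member with the smallest p in the progenitor experiment (Maml2), a receptor that rose (Notch3) and the member that differed between the experiments (Dner).
Hes5, chr4:154960673-154960972, plus strand: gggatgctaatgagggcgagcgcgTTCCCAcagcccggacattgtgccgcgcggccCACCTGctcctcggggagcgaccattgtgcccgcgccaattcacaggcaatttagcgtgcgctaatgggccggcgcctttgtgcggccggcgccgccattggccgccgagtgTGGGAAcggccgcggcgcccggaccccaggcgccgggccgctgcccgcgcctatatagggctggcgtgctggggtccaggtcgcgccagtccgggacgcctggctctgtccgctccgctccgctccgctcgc
Rbpj, chr5:53590096-53590395, plus strand: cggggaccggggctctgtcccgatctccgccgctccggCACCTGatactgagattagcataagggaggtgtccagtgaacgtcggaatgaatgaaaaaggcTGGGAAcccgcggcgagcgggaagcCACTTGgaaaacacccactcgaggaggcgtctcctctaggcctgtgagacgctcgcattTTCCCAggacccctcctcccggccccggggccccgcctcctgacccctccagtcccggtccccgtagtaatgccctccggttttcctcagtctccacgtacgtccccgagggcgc
Maml2, chr9:13662210-13662509, plus strand: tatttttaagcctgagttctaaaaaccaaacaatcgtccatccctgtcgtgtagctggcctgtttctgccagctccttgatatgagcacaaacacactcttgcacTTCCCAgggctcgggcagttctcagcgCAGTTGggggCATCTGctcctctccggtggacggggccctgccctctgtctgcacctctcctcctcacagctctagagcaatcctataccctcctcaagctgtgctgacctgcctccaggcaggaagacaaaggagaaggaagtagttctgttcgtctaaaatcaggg
Notch3, chr17:32166841-32167140, minus strand: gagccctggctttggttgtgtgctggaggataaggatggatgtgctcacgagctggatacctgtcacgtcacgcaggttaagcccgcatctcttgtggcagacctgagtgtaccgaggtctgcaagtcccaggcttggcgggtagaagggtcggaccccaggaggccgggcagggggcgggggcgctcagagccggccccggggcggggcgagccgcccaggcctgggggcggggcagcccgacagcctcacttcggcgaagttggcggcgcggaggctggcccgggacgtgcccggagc
Dner, chr1:84696172-84696471, minus strand: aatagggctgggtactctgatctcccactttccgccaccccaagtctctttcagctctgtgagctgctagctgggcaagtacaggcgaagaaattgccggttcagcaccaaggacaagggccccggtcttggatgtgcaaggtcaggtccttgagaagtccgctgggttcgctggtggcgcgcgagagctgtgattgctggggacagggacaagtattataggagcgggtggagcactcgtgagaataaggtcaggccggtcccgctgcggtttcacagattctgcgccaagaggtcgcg

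The Hes5 window holds 2 RBPJ cores, 226 and 82 bases upstream of the start site, and an E-box 194 bases upstream. The Rbpj window shown also holds 2 cores, 149 and 65 bases upstream. A second Rbpj window (chr5:53590236-53590535) overlaps it and holds the nearer of these cores, there 205 bases upstream. That core counts for both windows. Both Rbpj windows lie at start sites inside the gene, whose annotation begins at 53466152. Maml2 has 2 windows: the window shown, at a start site inside the gene, holds a core 145 bases upstream, and the window at the first start site (chr9:13297708-13298007) holds none. The windows of Notch3 and Dner hold neither motif. Windows were matched by symbol for 24 members, 30 windows in all, and 8 of them (26.7%) held the core, in 7 members (Hes5, Hes7, Hey2, Rbpj, Maml2, Maml3 and Lfng). Among all 32851 windows of that length in the table, 25.6% held it. No window was used for Hes1, Hey1, Heyl, Mfng, Mib1 and Dtx4, so whether they have a core was not examined. Member windows on chr18, where Mib1 lies, were left out, while the count over all windows kept that chromosome. An E-box was in 18 member windows (60%), against 72.3% of all windows. Of the 7 members with a core in a window used, Maml2 rose and Rbpj fell in the progenitor experiment, and the other 5 did not pass the test. In that experiment 33.3% of all 30 members and 23.4% of all genes tested were called. A link between the core and the calls was not tested.

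Markers of upper-layer neurons (10 genes) summed to 1720 to 2040 CPM in progenitor libraries labelled mutant and 1550 to 1760 CPM in controls, and to 2060 to 2290 CPM in postmitotic libraries labelled mutant and 2190 to 2260 CPM in controls. No marker of any list examined was at 0 in all libraries, those of astrocytes, oligodendrocyte lineage, microglia, vessels, interneurons and progenitors included, though 1 read would meet that. Astrocyte markers (10 genes) summed to 2320 to 2890 CPM in progenitor controls and 1280 to 1420 CPM in postmitotic controls. In libraries labelled mutant they summed to 1990 to 2390 CPM and 1130 to 1260 CPM. The libraries thus held more than layer II/III neurons. In bulk RNA, fewer cells of a type and less RNA per cell cannot be told apart. Lhx2, the targeted gene, was not lower in either set labelled mutant. It averaged 129 ± 11.3 CPM (counts divided by the TMM-scaled library size) in progenitor mutants and 128 ± 8.8 in controls (SD, n = 4 each; log2 fold change 0.02 ± 0.07). In postmitotic mutants it averaged 179 ± 6.62 CPM, against 146 ± 3.8 in controls (n = 3 each; log2 fold change 0.29 ± 0.06, edgeR adjusted p = 0.0276). Counts per gene do not show which exons were read, so the groups are called by their labels. Y-linked counts above 1 CPM were in 3 of 4 progenitor libraries labelled mutant and in 0 of 4 progenitor controls. The postmitotic experiment had them in 1 of the 3 mutant-labelled libraries and in 2 of the 3 controls. The library labelled progenitor mutant 3 held both Y-linked counts and Xist. Libraries held 21605777 to 29497595 counts. The labels do not say which animals the replicates came from. In 3 of the 4 groups some replicates held Y-linked counts and others did not, so the replicates of those groups were not all taken from the same animal, and p-values measure the spread between these libraries.

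In the progenitor experiment, 7 members rose in the libraries labelled mutant (Notch1, Notch3, Jag2, Dlk1, Dtx4, Maml2 and Hes6), 3 fell (Rbpj, Hey1 and Dner) and 20 did not pass the test (edgeR quasi-likelihood test, Benjamini-Hochberg adjusted p under 0.05 over all genes). These 10 calls are 33.3% of the members, against 23.4% of the 15295 genes tested. By direction, 12% of all genes were called higher and 11.4% lower. The gap between the members' share and that of all genes was not tested. Dlk1 entered the test only through the libraries labelled mutant. The median log2 fold change of the members was 0.13, against 0.00 over all genes. In the postmitotic experiment no member passed the test, where 1.96% of 17775 genes did (0.895% higher and 1.06% lower), and the members' median was -0.02. By unadjusted p under 0.05, 4 postmitotic members passed (13.3%, against 11.4% of all genes), and DESeq2 and limma-voom also called 0.

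**Figure D1:**
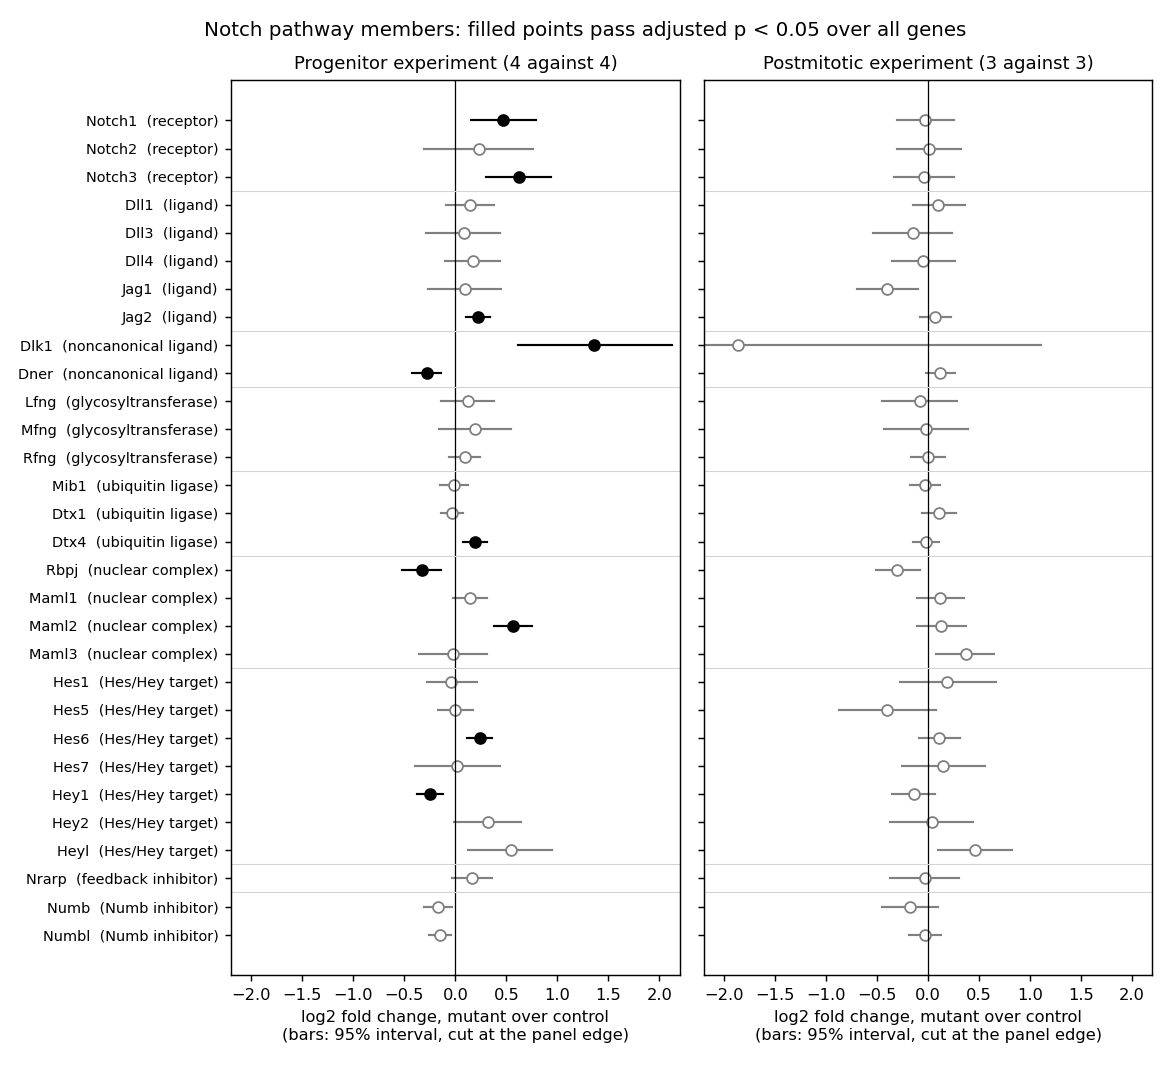
Log2 fold change of each of the 30 members, libraries labelled mutant over controls (x axis), by role (y axis), in the progenitor (left, 4 against 4) and postmitotic experiment (right, 3 against 3). Points are edgeR estimates, bars 95% intervals, and filled points pass adjusted p under 0.05: 10 members on the left, none on the right.

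Of the 3 receptors listed, Notch1 and Notch3 rose in the progenitor experiment. Notch1, the main receptor of radial glia, had 58.4, 48.9, 62.4 and 59.1 CPM in the libraries labelled mutant, against 29.7, 42.5, 48.3 and 45.2 CPM in controls. Notch3 had 64.9, 53.9, 67.8 and 63.5 CPM in the libraries labelled mutant, against 32.3, 40.9, 52.5 and 36.9 CPM in controls. For both genes every library labelled mutant lay above every control, though mutant 2 and control 3 lay close to each other. Notch1 averaged 57.2 ± 5.81 CPM in mutant-labelled libraries and 41.4 ± 8.17 in controls (log2 fold change 0.47 ± 0.14 SE, adjusted p = 0.0416). Notch3 averaged 62.5 ± 6.04 CPM in mutant-labelled libraries and 40.7 ± 8.67 in controls (0.62 ± 0.14, adjusted p = 0.0135). Notch2, found in glia and vessels as well as progenitors, had 28.7 to 39.6 CPM in the libraries labelled mutant and 17.5 to 39.2 CPM in controls, which overlap (0.23 ± 0.23). Notch1 spans chr2:26457903-26516663 on the minus strand (GRCm38/mm10) and Notch3 chr17:32120820-32166852 on the minus strand, and 9.76% and 6.03% of their exonic bases lie in exons of other annotated genes, some on the opposite strand, whose reads may not have been separated. The postmitotic log2 fold changes were -0.03 ± 0.13 for Notch1, 0.01 ± 0.14 for Notch2 and -0.04 ± 0.13 for Notch3.

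Part of the mural marker list was higher in the same libraries as the receptors. Its 8 genes summed to 354, 272, 322 and 297 CPM in the progenitor libraries labelled mutant, against 193, 225, 298 and 216 CPM in controls, and 4 of the 8 (Rgs5, Kcnj8, Abcc9 and Cspg4) rose. The sums overlap, with control 3 above mutants 2 and 4, and Cspg4 is also a marker of the oligodendrocyte lineage. Control 3 was the highest control for the mural sum, Notch1 and Notch3, and mutant 2 was the lowest library labelled mutant for all of these. With the mural sum as a covariate, chosen after seeing the data, Notch1 gave 0.13 (adjusted p = 0.672) and Notch3 0.21 (adjusted p = 0.218). That sum tended to be higher under the mutant label, so this fit cannot separate the 2. Over all genes it called 647, against 3577 without the covariate. The part of mural cells in the receptor values was not tested. Endothelial markers summed to 222 to 340 CPM in the libraries labelled mutant and 203 to 296 CPM in controls, and 0 of 8 passed the test. Postmitotic mural sums overlapped, at 133 to 166 CPM in libraries labelled mutant and 144 to 169 CPM in controls. The Notch1 call was also lost without mutants 1, 3 or 4 or controls 2 or 4 (adjusted p up to 0.101), while Notch3 kept its call without any single library.

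**Figure D2:**
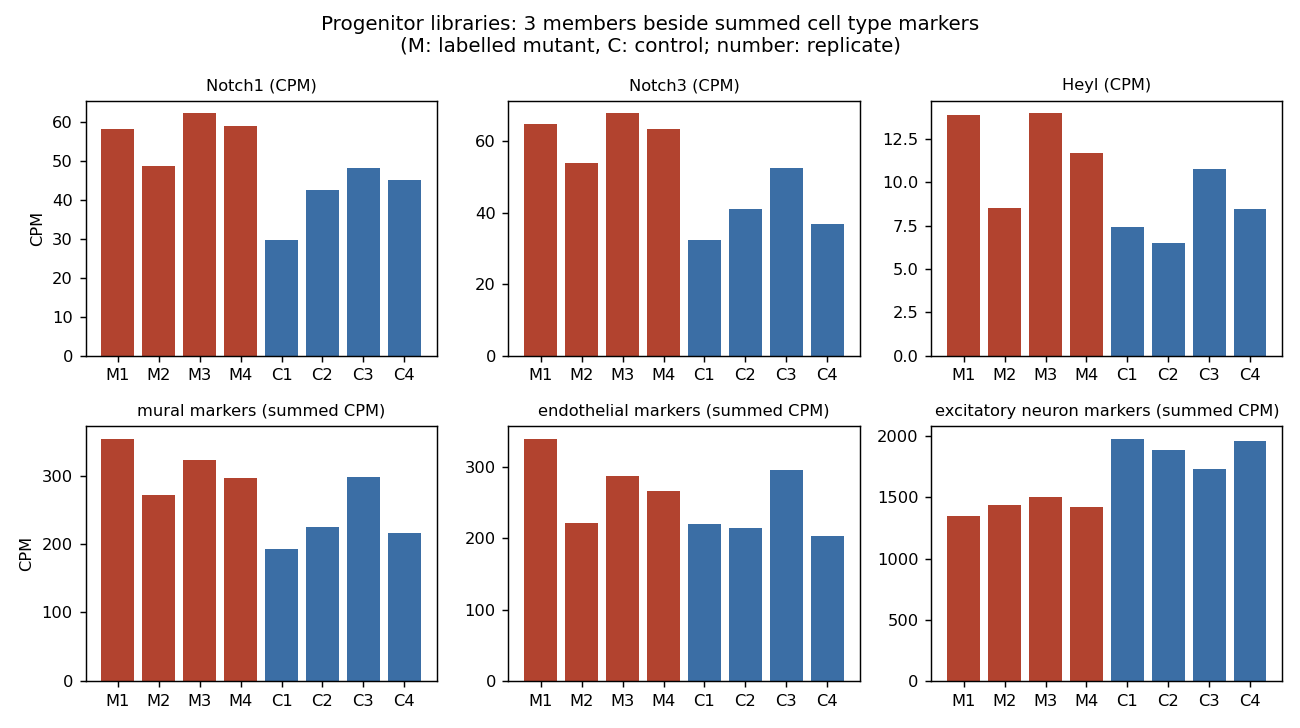
CPM of Notch1, Notch3 and Heyl (top row) and the summed CPM of mural, endothelial and excitatory neuron markers (bottom row) in each progenitor library (x axis; M, labelled mutant; C, control). Mural sums were 272 to 354 in the libraries labelled mutant and 193 to 298 in controls, and control 3 stood highest among controls for Notch1, Notch3, Heyl and the mural sum.

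Jag2 was the only canonical ligand of the 5 to rise in the progenitor experiment. This Jagged ligand, also made by neurons, had 98.2, 93.8, 100 and 94.5 CPM in the libraries labelled mutant, against 85.2, 85, 86.5 and 76.5 CPM in controls. The groups did not overlap, and the means were 96.7 ± 3.15 and 83.3 ± 4.57 CPM in mutant-labelled libraries and controls (0.22 ± 0.05, adjusted p = 0.0139). With the mural sum as a covariate it was 0.15 (adjusted p = 0.282). Dll1, the main ligand of newborn neurons, had 11.1 to 14.2 CPM in the libraries labelled mutant and 9.78 to 12.9 CPM in controls (0.14 ± 0.11). Dll3, a Delta family member that does not activate Notch in trans, gave 0.08 ± 0.17, the vessel ligand Dll4 gave 0.17 ± 0.12 and Jag1, a ligand of progenitors and vessels, gave 0.09 ± 0.16. None of these 4 passed the test. Neurog2, a proneural factor known to drive Dll1, averaged 142 ± 64.4 CPM in the libraries labelled mutant and 0.265 ± 0.0948 CPM in controls (9.05 ± 0.65, adjusted p = 0.000327), and its part in the ligand values was not tested. Among postmitotic values of the ligands the lowest unadjusted p was that of Jag1, with 4.98, 4.99 and 5.76 CPM in libraries labelled mutant against 7.03, 6.67 and 6.93 CPM in controls. These groups did not overlap, but the adjusted p was 0.229 (-0.40 ± 0.14).

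The noncanonical ligands Dlk1 and Dner moved in opposite directions. Dner, a neuronal transmembrane protein with EGF repeats that has been described as a Notch ligand on glia, had 252, 292, 265 and 250 CPM in progenitor libraries labelled mutant, against 300, 345, 302 and 343 CPM in controls. All mutant-labelled libraries lay below all controls, and the means were 265 ± 19.4 and 323 ± 24.8 CPM in mutant-labelled libraries and controls (-0.28 ± 0.07, adjusted p = 0.0118). Postmitotic values of Dner were 292, 268 and 279 CPM in libraries labelled mutant, against 244, 261 and 262 CPM in controls. There the mutant-labelled libraries lay above the controls, without passing the test (0.12 ± 0.06, adjusted p = 0.514). Dner was the 1 member whose fold change differed between the experiments by the test of that difference (progenitor minus postmitotic -0.40 ± 0.09, 95% interval -0.60 to -0.21, adjusted p = 0.0161). Excitatory neuron markers, 8 genes, summed to 1350 to 1500 CPM in progenitor libraries labelled mutant and 1730 to 1980 CPM in controls (3 fell and 1 rose). They summed to 1190 to 1240 CPM in postmitotic libraries labelled mutant and 1290 to 1350 CPM in controls, where Neurod2 and Tbr1 rose and Slc17a6, Neurod6 and Camk2a fell. That list holds Neurod6, the locus that carries the NexCre insertion, so its value there does not count cells. Their part in the Dner result was not tested.

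Dlk1, an imprinted gene whose protein lacks the domain that canonical ligands use to activate Notch, was the least abundant member per kb of exon in both tables. It had 1.17, 0.605, 0.872 and 0.474 CPM in the progenitor libraries labelled mutant, against 0.285, 0.267, 0.301 and 0.346 CPM in controls. These rest on 27, 14, 21 and 11 counts in the libraries labelled mutant and 7, 7, 8 and 10 counts in controls. The groups did not overlap (1.36 ± 0.34, adjusted p = 0.0155), and without mutant 1 the call was lost (adjusted p = 0.0528). Dlk1 passed the filter on low counts only through the libraries labelled mutant, since every control lay below its cut. That it was tested thus depended on their higher level. With a 1 CPM filter it was not tested, and without a filter edgeR gave 1.36 (adjusted p = 0.0172). With the mural sum as a covariate the value was 0.85 (adjusted p = 0.377). The 3 postmitotic libraries labelled mutant held 1, 13 and 0 counts, against 2, 28 and 20 counts in controls, so the groups overlapped (-1.86 ± 1.22). The difference between the experiments did not pass the test (3.23, 95% interval 0.93 to 5.53, adjusted p = 0.0846).

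**Figure D3:**
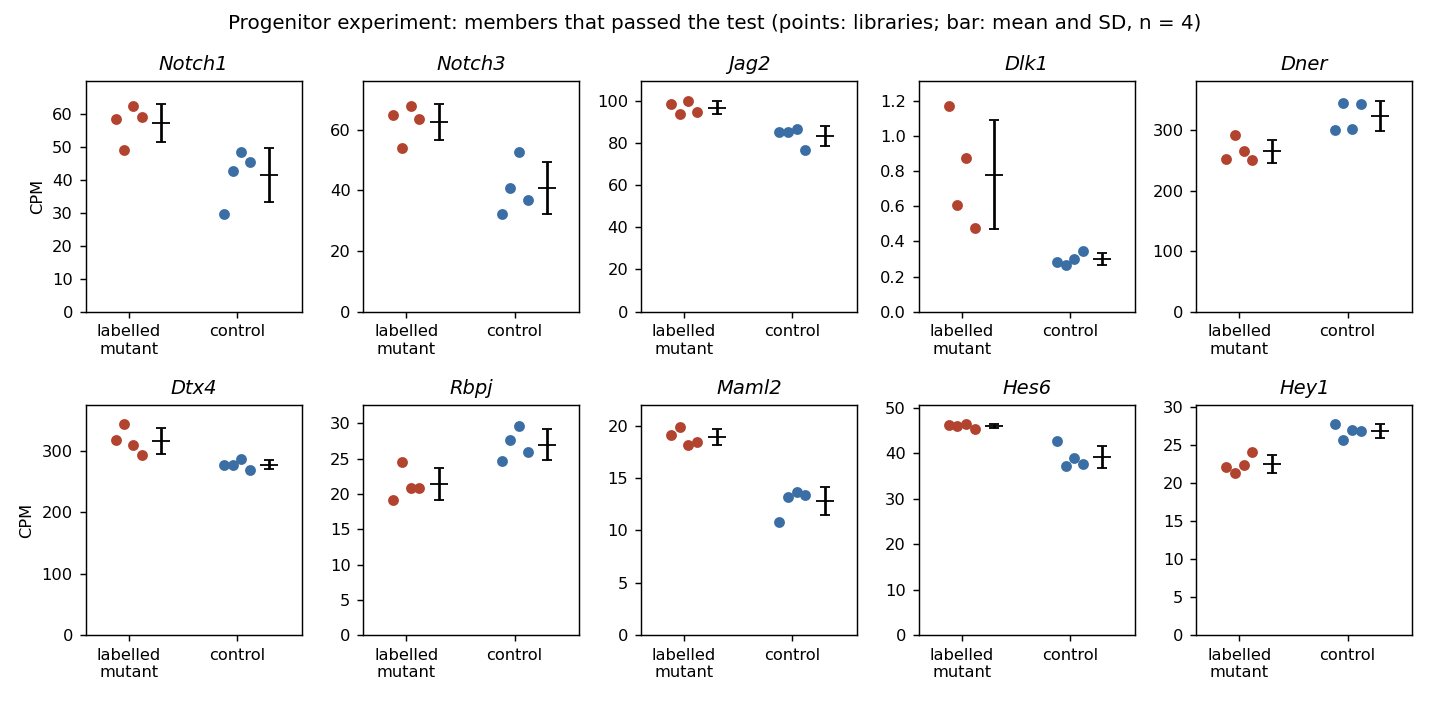
CPM (y axis, from 0) of the 10 members that passed the test in the progenitor experiment, in the 4 libraries labelled mutant (left) and the 4 controls (right) of each panel. Points are libraries, bars the mean and SD; the groups do not overlap in any panel.

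The 3 Fringe genes, glycosyltransferases that tune which ligands a receptor answers to, did not pass the test in either experiment. In the progenitor experiment Lfng gave 0.12 ± 0.12, Mfng 0.19 ± 0.16 and Rfng 0.09 ± 0.07, and in the postmitotic experiment -0.08 ± 0.17, -0.02 ± 0.19 and 0.00 ± 0.08. Of the ubiquitin ligases, Dtx4, a Deltex protein of receptor trafficking, rose in the progenitor experiment. It had 318, 343, 309 and 293 CPM in the libraries labelled mutant, against 276, 276, 287 and 269 CPM in controls. The groups were apart but close, with means of 316 ± 20.9 and 277 ± 7.24 CPM in mutant-labelled libraries and controls (0.19 ± 0.05, adjusted p = 0.0262). The call was lost without mutants 1, 2 or 3 or controls 2 or 4 (adjusted p up to 0.0751). Mib1, which readies ligands in the signal-sending cell, gave -0.01 ± 0.06 and Dtx1, another Deltex gene, -0.03 ± 0.05, with overlapping groups. These 3 ligases gave between -0.03 and 0.11 in the postmitotic experiment.

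In the nuclear complex, the coactivator Maml2 rose and the DNA-binding factor Rbpj fell in the progenitor experiment. Maml2 had 19.1, 19.9, 18.1 and 18.4 CPM in the libraries labelled mutant, against 10.8, 13.2, 13.7 and 13.4 CPM in controls. The lowest mutant-labelled library, at 18.1 CPM, stood well above the highest control, at 13.7 CPM, and the means were 18.9 ± 0.784 and 12.8 ± 1.35 CPM in mutant-labelled libraries and controls (0.56 ± 0.09, adjusted p = 0.00122). Rbpj had 19.2, 24.6, 20.8 and 20.9 CPM in the libraries labelled mutant, against 24.7, 27.6, 29.7 and 25.9 CPM in controls. Its groups just failed to meet, with mutant 2 at 24.6 CPM and control 1 at 24.7 CPM (-0.33 ± 0.09, adjusted p = 0.0176). The Rbpj call was lost without mutant 1 or mutant 3 (adjusted p up to 0.0585). The coactivators Maml1 (0.14 ± 0.08) and Maml3 (-0.02 ± 0.15) did not pass the test.

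Postmitotic Rbpj levels were 28.7, 25.5 and 31.4 CPM in libraries labelled mutant, against 32, 38.7 and 34.1 CPM in controls. The groups did not overlap and the estimate, -0.30 ± 0.10, was of the same size as in the progenitor experiment, but its adjusted p was 0.212. The difference between the 2 estimates for Rbpj was -0.04 (95% interval -0.32 to 0.25). Maml2 gave 0.13 ± 0.11, and its difference between the experiments, 0.44 (95% interval 0.16 to 0.71), had an adjusted p of 0.0546. Maml3 had 8.71, 10.4 and 8.72 CPM in libraries labelled mutant, against 6.87, 7.38 and 7.2 CPM in controls, without passing the test (0.37 ± 0.13, adjusted p = 0.251).

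Among the 7 Hes and Hey genes, Hes6 rose and Hey1 fell in the progenitor experiment. Hes6, which antagonises Hes1 and promotes neuronal differentiation, had 46.1, 46, 46.3 and 45.2 CPM in the libraries labelled mutant, against 42.6, 37.1, 39 and 37.7 CPM in controls. Its mutant-labelled libraries were tightly grouped, with means of 45.9 ± 0.481 and 39.1 ± 2.46 CPM in mutant-labelled libraries and controls (0.24 ± 0.06, adjusted p = 0.0121). Hey1, a repressor switched on by Notch, had 22.1, 21.3, 22.3 and 24.1 CPM in the libraries labelled mutant, against 27.7, 25.6, 26.9 and 26.8 CPM in controls. All its mutant-labelled libraries lay below the controls, with means of 22.5 ± 1.17 and 26.8 ± 0.891 CPM in mutant-labelled libraries and controls (-0.25 ± 0.06, adjusted p = 0.0136). The canonical targets Hes1 and Hes5 did not pass the test: Hes5 averaged 26.7 CPM in both groups (0.00 ± 0.08, 95% interval -0.17 to 0.17) and Hes1 gave -0.04 ± 0.11 (95% interval -0.28 to 0.21). Nrarp, a Notch target whose protein dampens the nuclear complex, gave 0.16 ± 0.09, and Hes7, known from the somite clock, 0.02 ± 0.19.

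Heyl, a Hey gene known from vascular smooth muscle, had 13.9, 8.51, 14 and 11.7 CPM in the progenitor libraries labelled mutant, against 7.42, 6.48, 10.8 and 8.47 CPM in controls. The groups overlapped through mutant 2 and control 3, which were also the lowest mutant-labelled and the highest control library for the mural sum (0.54 ± 0.19, adjusted p = 0.063). Without mutant 2 the value was 0.67 (adjusted p = 0.0174), and without control 3 it was 0.69 (adjusted p = 0.0179). Leaving out the lowest mutant-labelled library or the highest control raises the value by construction, so these fits are no separate evidence. Heyl was not called when any other single library was left out. Hey2, another vascular Hey gene, gave 0.32 ± 0.15 (adjusted p = 0.143). Postmitotic Heyl levels were 8.14, 11 and 7.68 CPM in libraries labelled mutant, against 5.26, 6.95 and 7.2 CPM in controls. These did not overlap and did not pass the test (0.46 ± 0.17, adjusted p = 0.274). The other 6 Hes and Hey genes gave between -0.40 and 0.19 there, with Hes5 at 5.47, 4.91 and 6.85 CPM in libraries labelled mutant against 4.95, 9.12 and 8.54 CPM in controls.

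Numb and Numbl, adaptor proteins that block Notch in the daughter cell that inherits them, lay lower in every progenitor library labelled mutant without passing the test. Numb had 18.2 to 20 CPM in the libraries labelled mutant and 20.6 to 22 CPM in controls (-0.17 ± 0.06, adjusted p = 0.0679). Numbl had 114 to 119 CPM in the libraries labelled mutant and 121 to 137 CPM in controls (-0.15 ± 0.05, adjusted p = 0.0564). Both overlapped in the postmitotic experiment (-0.18 ± 0.13 for Numb and -0.03 ± 0.08 for Numbl). Over all members, the progenitor groups did not overlap for 12 (7 with the libraries labelled mutant above, 5 below), where 26.9% of all genes tested did not (13.6% above, 13.3% below). The postmitotic groups did not overlap for 7 (4 above, 3 below), where 16.5% of all genes did not (8.74% above, 7.75% below).

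**Figure D4:**
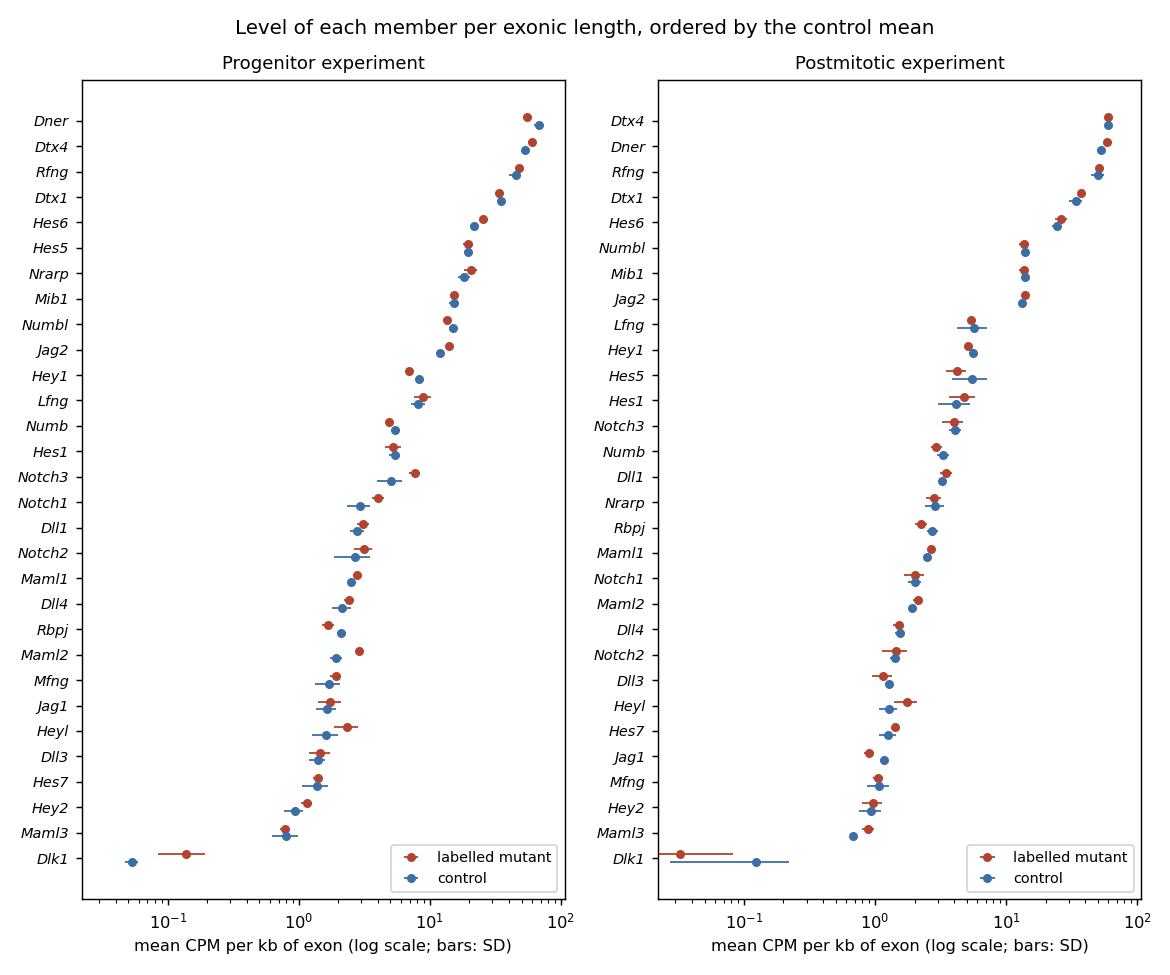
Mean CPM per kb of exon of each member (x axis, log scale; bars, SD over 4 or 3 libraries), for libraries labelled mutant and controls, ordered by the control mean of each experiment (y axis). Dner, Dtx4 and Rfng lead and Dlk1 is lowest in both experiments.

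Levels per kb of exon, the scale on which genes can be set side by side, covered a wide range. In the progenitor experiment Dner was at 55.4 ± 4.06 CPM per kb in libraries labelled mutant and 67.4 ± 5.18 in controls, and Dtx4 at 60.5 ± 4.01 in libraries labelled mutant and 53 ± 1.39 in controls. Dtx4 thus had the highest mean in libraries labelled mutant and Dner in controls. Rfng came next, at 48.1 ± 1.14 CPM per kb in libraries labelled mutant and 45.1 ± 4.87 in controls. In the postmitotic experiment Dtx4 led, at 59.4 ± 1.7 CPM per kb in libraries labelled mutant and 59.9 ± 1.21 in controls, with Dner at 58.4 ± 2.47 in libraries labelled mutant and 53.4 ± 2.12 in controls. The receptors were far lower. Progenitor libraries labelled mutant had 7.73 CPM per kb of Notch3, 4.02 of Notch1 and 3.14 of Notch2, and controls had 5.03 ± 1.07 of Notch3, 2.91 ± 0.574 of Notch1 and 2.68 ± 0.823 of Notch2. Notch1, Dll1 (2.8 ± 0.33) and Notch2 are neighbours in the control order that lie within their spread. Rbpj was at 1.68 CPM per kb in progenitor libraries labelled mutant and 2.11 ± 0.17 in controls.

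The machinery around these members was taken from a further list of 52 pathway genes, of which 50 were tested (Hes2 and Hes3 had too few counts). In the progenitor experiment 8 rose and 5 fell, or 26% of those tested, against 23.4% of all genes, and their median log2 fold change was 0.01. Tle2, a Groucho corepressor that works with Hes proteins, had the smallest p, with 45.3 ± 4.07 CPM in libraries labelled mutant and 29.4 ± 1.72 CPM in controls (0.63 ± 0.07, adjusted p = 0.000255). Notch4, the endothelial receptor, averaged 14.9 ± 1.26 CPM in libraries labelled mutant and 10.4 ± 1.47 CPM in controls (0.52 ± 0.11, adjusted p = 0.00628). Of the genes of protein turnover or endocytosis, those with the smallest p fell: the dynamin gene Dnm1 (-0.40 ± 0.06), the ligase gene Neurl1a (-0.47 ± 0.08) and Fbxw7 (-0.37 ± 0.07), whose protein marks the Notch intracellular domain for destruction. None of the 7 gamma-secretase genes and none of the 3 surface protease genes, whose products cut the receptor, passed the test (unadjusted p under 0.05 for 2 and 0 of them). Over all genes of the progenitor experiment, 37.1% had an unadjusted p under 0.05 by the same edgeR test. Among postmitotic libraries 1 of 50 rose, the corepressor gene Tle4, with 79, 68.4 and 53.4 CPM in libraries labelled mutant against 43.7, 41.1 and 42.5 CPM in controls (0.65 ± 0.12, adjusted p = 0.0156), and 0 fell. The Tle4 groups did not overlap, but none of the 50 was called higher without mutant 2 or without any 1 of the 3 controls. Postmitotic Fbxw7 had 140, 134 and 120 CPM in libraries labelled mutant against 158, 156 and 161 CPM in controls. It did not pass the test (-0.28 ± 0.07, adjusted p = 0.055), and its difference between the experiments was -0.09 (95% interval -0.30 to 0.11).

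The test of the difference between the experiments, over 15643 genes in both tables, called 6.94% of genes (3.84% higher and 3.1% lower), and 1 of the 30 members (3.33%), Dner, as lower. Next came Maml2, Dlk1 and Notch3, whose difference was 0.67 (95% interval 0.19 to 1.15, adjusted p = 0.0897). The Notch1 difference was 0.49 (95% interval 0.02 to 0.96, adjusted p = 0.193). So for 9 of the 10 members called in the progenitor experiment, a difference from the postmitotic experiment was not shown. Of the further 50 genes, Notch4 (0.66) and Tle2 (0.51) were called higher in the difference and Neurl1a (-0.48), Neurl1b (-0.35) and Dnm1 (-0.35) lower.

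Because Y-linked counts differed between the progenitor groups, the fit was repeated in the libraries without them, mutant 1 against the 4 controls, a choice made after seeing the data. That fit has a lone mutant-labelled library, which is assumed to vary like the controls. It gave 0.57 for Maml2, 0.66 for Notch3, 1.93 for Dlk1 and -0.50 for Rbpj, and the adjusted p of the 10 members ran from 0.0659 to 0.299. Since the groups of these 10 did not overlap, mutant 1 had to lie on the same side of the controls, so the direction there is no separate evidence. With Y-linked CPM as a covariate in all 8 libraries, Maml2 (0.58, adjusted p = 0.0346) and Dlk1 (1.98, adjusted p = 0.0228) passed. With the mural sum as a covariate none of the 10 passed, with Maml2 at 0.46 (adjusted p = 0.0648), Hes6 at 0.26, Hey1 at -0.25 and Dner at -0.20. Marker lists of progenitors also moved: 10 such genes, of which 4 rose (Nes, Neurog2, Mki67 and Top2a), summed to 403 to 530 CPM in progenitor libraries labelled mutant and 219 to 304 CPM in controls. Without Neurog2 that sum was 283 to 355 CPM in libraries labelled mutant and 219 to 304 CPM in controls. Astrocyte markers, of which 4 of 10 fell, summed to 1990 to 2390 CPM in libraries labelled mutant and 2320 to 2890 CPM in controls. In the oligodendrocyte lineage list 3 of 8 rose (Pdgfra, Cspg4 and Mog), with sums of 530 to 614 CPM in libraries labelled mutant and 485 to 564 CPM in controls. In the upper-layer list 4 of 10 rose and 1 fell, in the microglia list 2 of 8 fell and in the interneuron list 2 of 8 fell. Their part in the members' values was not tested.

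**Figure D5:**
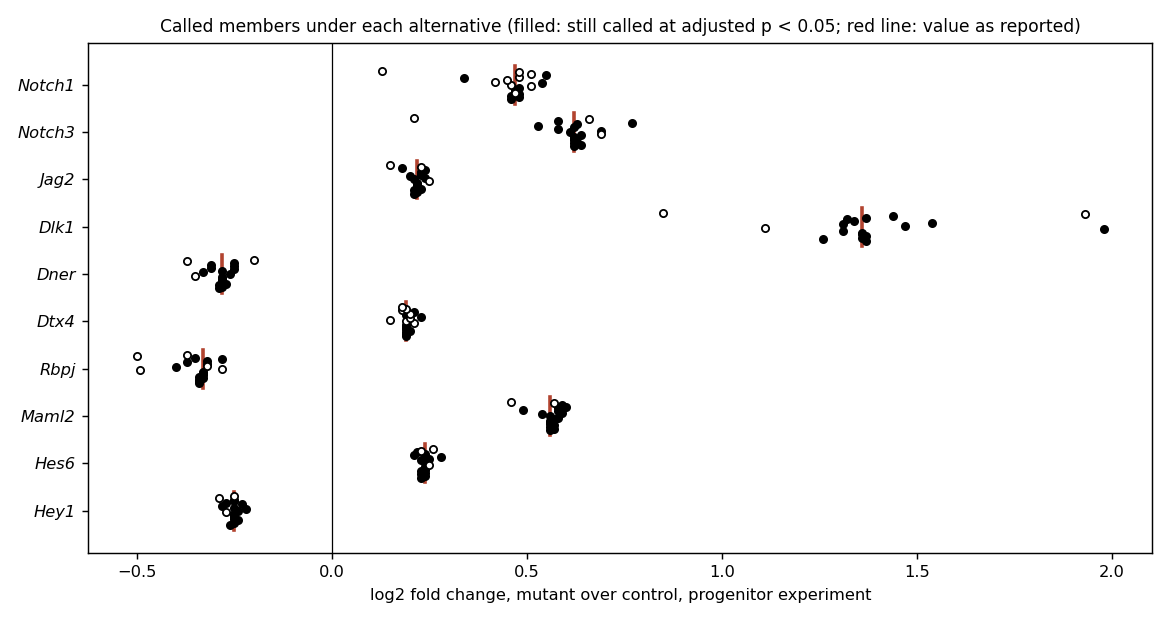
Log2 fold change, libraries labelled mutant over controls (x axis), of the 10 members called in the progenitor experiment (y axis) under each alternative. Red lines mark the reported value and filled points pass adjusted p under 0.05; the lowest open points of Notch1 (0.13) and Notch3 (0.21) come from the fit with the mural sum as a covariate.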

How the data were processed

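The authors deposited whole-number read counts per gene symbol, 1 table for each experiment. They also deposited tables of their own results, with mean normalised counts (a signal averaged over libraries), log2 fold changes, the Wald score and p-values, per the file headers. HISAT2, featureCounts, DESeq2 and build mm10 are named in the submitters' processing notes; which versions, annotation and strand setting were used is not given in these sources. Without the strand setting, reads of a member and of an antisense gene cannot be told apart. The directional kit read 150 bases from each end, per the labels' protocols. The tables held 0 columns of other samples.

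Separate fits of the 2 tables used edgeR 4.0.16 (R 4.3.3), with filterByExpr, TMM factors, robust glmQLFit and glmQLFTest, and Benjamini-Hochberg adjustment over all tested genes. Genes were called at an adjusted p under 0.05. The difference between experiments was the interaction in 1 fit of 14 libraries over the 24690 shared symbols. Log2 fold changes put the mutant label over control and carry their SE; CPM use TMM-scaled library sizes. Levels per kb divide CPM by exonic length (GENCODE M21, GRCm38/mm10). The fits were tested on simulated data.

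Library totals were 22677019 to 29497595 counts in the progenitor and 21605777 to 25891416 in the postmitotic experiment. No 2 replicates agreed within sampling noise (chi-square over its degrees of freedom, 6.73 to 20.7). Members and gene lists were chosen with earlier results of these data known. All 30 members are named, and up to 5 called genes per experiment of the further pathway list, by smallest p; those called in the difference were named after their values were seen. Alternatives were DESeq2 1.42.0, limma-voom (limma 3.58.1), other factors, filters and thresholds, a replicate block, Y-linked CPM as a covariate and leaving out each library. Fits with the mural sum or without Y-linked libraries were added after seeing the data.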

Additional observations from a re-analysis of the deposited data

Results flagged for a closer look

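Among 60 groups of 4 libraries examined, 3 held a library far from the other 3, where chance gives about 1 in 20 groups. Jag2 had 76.5 CPM in progenitor control 4, with the next control at 85 CPM. Maml2 had 10.8 CPM in progenitor control 1, with the next control at 13.2 CPM, and without control 1 its call was kept. Mfng had 6.32 CPM in progenitor control 3, with the next control at 4.44 CPM. Control 3 was also the highest control for the mural marker sum (298 CPM).

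The fold change of Dner differed between the experiments (progenitor minus postmitotic -0.40 ± 0.09, edgeR adjusted p = 0.0161): it fell in the progenitor libraries labelled mutant, while in the postmitotic experiment all 3 libraries labelled mutant lay above the 3 controls without passing the test. The call was kept without any single library (14 of 14 fits).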

How the results depend on the processing

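No called value changed sign under any alternative run, which non-overlapping groups fix for the fits that only leave out libraries. Each member was counted once per alternative fit. Values called neither in the reported fit nor in that alternative changed sign 37 times in the progenitor experiment, 46 in the postmitotic one and 37 in the difference. Values whose call stayed the same numbered 541, 538 and 560 in that order. In the progenitor experiment, members called higher and lower numbered 7 and 3, further pathway genes 8 and 5, and all genes 3577. At adjusted p under 0.01 these were 1 and 0, 2 and 3, and 1567. With Y-linked CPM as a covariate they were 2 and 0, 4 and 2, and 947. In the libraries without Y-linked counts, with a lone library labelled mutant, they were 0 and 0, 0 and 0, and 393, and with the mural sum as a covariate 0 and 0, 1 and 1, and 647. Leaving out 1 library at a time gave 4 to 8 members higher (4 without mutant 1), 4 to 8 further genes higher, 3 to 6 lower, and 2383 to 3712 genes in all. DESeq2 called 8 members higher and 4 lower, and the authors' deposited table likewise 8 and 4, the additions in both being Heyl and Numbl. Without the filter Notch1 was not called. Rfng was called without control 1 (0.17, adjusted p = 0.0432).

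In the postmitotic experiment 0 members were called in any fit. Further genes called lower numbered 1 under DESeq2, without a filter, with a 1 CPM filter and with Y-linked CPM, and those called higher 0 at adjusted p under 0.01. All genes called numbered 527 by DESeq2, 723 without a filter and 146 at adjusted p under 0.01. Leaving out 1 library gave 0 to 1 further genes in each direction and 160 to 467 genes (160 without control 2, 197 without control 3). For the difference, DESeq2 called 2 members higher (Notch3 and Maml2) and 1650 genes, and Y-linked CPM left 0 members lower (Dner adjusted p = 0.0825) and 276 genes. Leaving out 1 library gave 0 to 2 members higher and 598 to 1481 genes.

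Samples with the same replicate number did not deviate together (r -0.44 to 0.09 in the progenitor and -0.2 to 0.03 in the postmitotic experiment). Those with different numbers gave r -0.37 to 0.45 in the progenitor and -0.1 to 0.18 in the postmitotic experiment. With 3 or 4 libraries a group, these values cannot exclude a pairing. With a replicate block, 8 progenitor members were higher and 3 lower (further genes 6 and 6, all genes 3073), 0 and 0 postmitotic (1 and 0, and 246), and in the difference 1 higher, Dlk1 (3.35), and 659 genes. The cause of these changes was not tested. Low counts limit Dlk1, and 3 libraries a group limit the postmitotic experiment.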

Other observations

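Nrarp and Hes5, both Notch targets, had higher values in the progenitor table than in the postmitotic table. The tables were counted separately and no test compared them. Nrarp had 42.1 to 53.1 CPM in progenitor controls and 6.24 to 8.65 CPM in postmitotic controls, a ratio of means of 6.38. Hes5 had 24.9 to 29.3 CPM in progenitor controls and 4.95 to 9.12 CPM in postmitotic controls, a ratio of 3.54. The ratio was 1.89 or less for the other 28 members. In GENCODE M21, exons of other genes cover 79.4% of the exonic bases of Nrarp and 31.8% of those of Hes5. The opposite-strand genes there had 0 counts (Gm38287) and 0 to 3 counts (Gm20421) in the postmitotic libraries. How reads in shared bases were counted is not given. These low counts therefore do not show whether the overlap changed the Nrarp and Hes5 values, which was not tested. Marker sums also differed between the tables: those of astrocytes were 2320 to 2890 CPM in progenitor controls and 1280 to 1420 CPM in postmitotic controls, those of radial glia and progenitors 219 to 304 CPM in progenitor controls and 207 to 242 CPM in postmitotic controls, and those of microglia 105 to 160 CPM in progenitor controls and 49.5 to 50.9 CPM in postmitotic controls. The part of these in the Nrarp and Hes5 values was not tested.

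The mean normalised counts in the authors' deposited postmitotic table matched those of replicates 1 and 2 of each group within 0.1% for 100% of 17372 genes, and those of all 6 libraries for 0.789%. The deposited postmitotic table called 0 members, as did the fit of all 6 libraries. For Dlk1 (log2 fold change -1.1 ± 1.26 there) the deposited adjusted p read 0, which was taken as missing and not counted as a call.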
